A study of Homo sapiens with 8 samples.

Results

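The extracellular matrix, integrin and mesenchymal genes are 41 genes taken by symbol, a choice made with earlier results of these data known. They are 7 collagens, 6 enzymes that modify or cross-link matrix proteins, 7 laminin and basement membrane genes, 5 matricellular or small proteoglycan genes, 9 integrin subunits and 7 mesenchymal or contractile genes. Of the 41, 38 had a probe set of their own on the array and 28 were bright enough to be tested, out of 7696 genes tested among 11963 on the array. COL17A1, LAMA3 and ITGB6 were not analysed here, because no probe set carried the symbol of COL17A1 or LAMA3 alone, and both probe sets of ITGB6 carried a second symbol as well.

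Expression was measured on Affymetrix 3′ arrays in 2 established human cancer cell lines. Caco-2 is a colon adenocarcinoma line whose cells can take on features of enterocytes, and HUG1N, which the labels also call HuG-1, is known as a gastric cancer line. With 2 arrays each, the groups were Caco-2 cells carrying a hairpin RNA (shRNA) that targets GATA6, Caco-2 control cells, HUG1N cells carrying the same kind of hairpin and HUG1N control cells. The protocol text, which is the same for all 8 arrays, describes infection with the hairpin, puromycin selection and harvest. What the controls were given, the number of hairpin sequences and the origin of the paired arrays, from 1 culture or from separate ones, are not stated there. A p-value here therefore rests on the spread between the 2 arrays of a group, pooled over the 4 groups, which may be no more than technical.

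The extracellular matrix is the protein network around cells. Epithelial cells rest on a basement membrane of laminins, type IV collagen, nidogen and perlecan, while fibroblasts secrete fibrillar collagens, which need hydroxylation of prolines and lysines and cross-linking by lysyl oxidases. Integrins are receptors of one alpha and one beta subunit that bind this matrix; the alpha6-beta4 pair anchors epithelial cells to laminin in hemidesmosomes. In epithelial-mesenchymal transition, epithelial cells gain the intermediate filament vimentin and the adhesion protein N-cadherin under regulators such as ZEB1 and SNAI2. GATA6 is a zinc-finger transcription factor of gut epithelium that binds sites with the core letters GATA.

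All values are GCRMA log2 expression values as deposited, with a lowest value of 2.08 that stands for no measurable signal. A gene was tested if it was over log2 4 in at least 2 arrays, and it is called where the adjusted p of limma's test, adjusted over all 7696 genes, was under 0.05. Differences are log2 values of shRNA minus control, or of HUG1N minus Caco-2, given with the standard error (SE) of the fit. Where no array of a group was over log2 4, the fold is a bound of the brighter group's mean against 4, written "at least". GATA6 itself was at 12.23 and 12.02 in the Caco-2 shRNA arrays against 12.63 and 12.45 in the controls, a difference of -0.42 (SE 0.10, adjusted p = 0.0224). In HUG1N it was at 12.26 and 12.22 with shRNA against 12.54 and 12.45 in controls, a difference of -0.25 (SE 0.10) that was not called (adjusted p = 0.0879). The shRNA arrays were lower in GATA6 than the control arrays of the same line in both lines, by less than 2-fold.

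Of 13 gut epithelium markers on the array, all 13 had a mean over log2 4 in both Caco-2 groups and 12 in both HUG1N groups, the exception being CDX2. CDX1 had exactly 4.5344 in all 4 Caco-2 arrays, so it adds little to that count. KRT20 was at 4.97 and 3.66 in HUG1N controls. Of 14 fibroblast markers, 12 were over log2 4 in no array, among them PDGFRA, DCN and COL1A2, each at or near the lowest value in every array. The other 2 were LUM, described below, and TWIST1, a regulator of epithelial-mesenchymal transition, at 9.02 and 9.19 in HUG1N with shRNA against 10.48 and 10.02 in controls and under log2 4 in Caco-2. Of 8 smooth muscle markers, 5 were over log2 4 in no array, MYH11, CNN1, DES, ACTG2 and LMOD1. The same held for 8 of 9 endothelial and 7 of 10 leukocyte markers. The signal gap between the 3′ and 5′ control probe sets of ACTB, a measure of RNA integrity and labelling, was 3.69 and 3.77 in the HUG1N shRNA arrays against 2.68 and 2.35 in the HUG1N controls. In Caco-2 it was 1.65 and 1.46 with shRNA against 1.91 and 1.94 in controls. The added hybridisation controls averaged 10.90 in the HUG1N shRNA arrays against 12.75 in the HUG1N controls, and 12.40 against 12.54 in Caco-2. Both measures moved with the shRNA in HUG1N, and their part in the HUG1N results below was not tested.

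In Caco-2 cells with the GATA6 shRNA, 17 of the 28 genes were called, 14 higher and 3 lower, or 60.7% against 38.7% of all genes tested (19.5% higher and 19.2% lower). The higher genes took in integrins, laminins, the proteoglycan lumican and actin-binding proteins. In HUG1N, 15 were called, 7 higher and 8 lower, or 53.6% against 48.7% of all genes (24.7% higher and 23.9% lower), a share near the background. The median difference of the 28 genes was 0.27 in Caco-2 and 0.04 in HUG1N, against -0.003 and 0 over all genes tested. A fitted change of at least 2-fold was seen in 6 called genes of Caco-2 and 5 of HUG1N. Both counts include a gene, LUM in Caco-2 and ACTA2 in HUG1N, that was bright enough to be tested only through the group where it is high and so had to differ. Without both genes, 16 of 26 were called in Caco-2 and 14 of 26 in HUG1N. The 5 of HUG1N also include TAGLN, whose fall by the bound against log2 4 is only at least 1.13-fold. Of the 28, 5 (COL1A1, LOX, TGFBI, ITGA3 and ITGA6) were called in neither line.

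**Figure D1:**
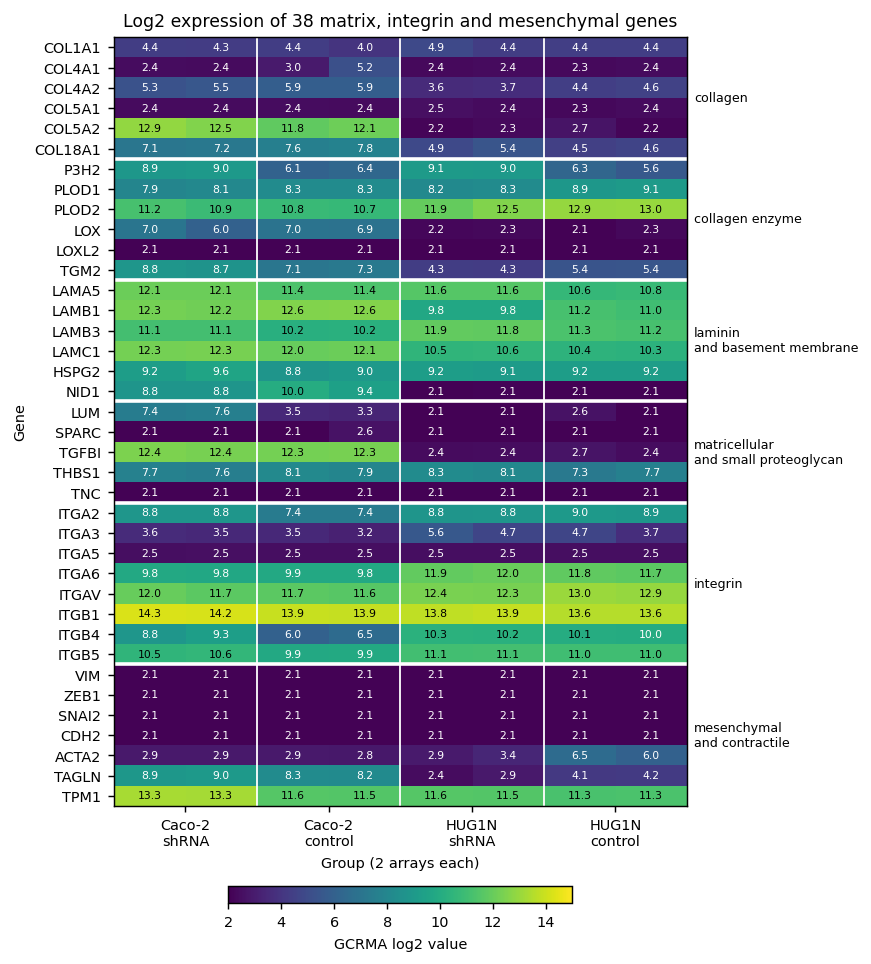
GCRMA log2 value of each of the 38 genes on the array (rows, by role) in each of the 8 arrays (columns, by group); colour and printed number give the same value. Vimentin, ZEB1, SNAI2 and CDH2 lie near the lowest value of 2.08 in every array, and COL5A2, TGFBI and NID1 are bright in Caco-2 and dark in HUG1N.

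The counts leave out 10 genes that were over log2 4 in fewer than 2 arrays. They include the 4 classical markers of epithelial-mesenchymal transition in the list, VIM (vimentin), ZEB1, SNAI2 and CDH2 (N-cadherin), all within 0.1 of the lowest value in every array of both lines, with or without the hairpin. LOXL2, a lysyl oxidase, and TNC, the matricellular protein tenascin C, lay there too. SPARC, a collagen-binding matricellular protein, reached at most 2.62, ITGA5, the alpha subunit of the fibronectin receptor, at most 2.52, and COL5A1, a type V collagen chain, at most 2.51. COL4A1, which pairs with COL4A2 in basement membrane collagen, was the one gene of the 10 with an array over log2 4. It stood at 2.41 and 2.40 in Caco-2 with shRNA against 2.96 and 5.16 in Caco-2 controls, so a single control array carried its signal.

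With the GATA6 shRNA, 5 genes were called higher in both lines, against 6.29% of all genes tested, and 2 were called lower in both, against 6.89%. The 5 were P3H2, LAMA5, LAMB3, TPM1 and ITGB1, and the 2 were COL4A2 and LAMB1. The largest of these changes was in P3H2, a prolyl 3-hydroxylase that modifies collagen chains, basement membrane collagen among them. P3H2 was at 8.89 and 8.99 in Caco-2 with shRNA against 6.09 and 6.36 in Caco-2 controls. In HUG1N it was at 9.09 and 8.98 with shRNA against 6.31 and 5.64 in controls. All 4 shRNA arrays were above all 4 control arrays. The differences were 2.71 in Caco-2 (SE 0.22, adjusted p = 0.000333) and 3.06 in HUG1N (SE 0.22, adjusted p = 0.000209), or 6.56-fold and 8.32-fold. The difference between these 2 effects was 0.34 (SE 0.31, adjusted p = 0.405), and the control cells of the lines differed by -0.25 (SE 0.22, adjusted p = 0.330). Without HUG1N control replicate 1 both were called, at 0.68 (adjusted p = 0.0379) and -0.59 (adjusted p = 0.0128).

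LAMA5 encodes the alpha5 chain of the laminins found in most epithelial basement membranes. Its levels were 12.07 and 12.10 in Caco-2 with shRNA against 11.36 and 11.35 in controls, and 11.57 and 11.59 in HUG1N with shRNA against 10.64 and 10.75 in controls. The groups did not overlap within either line, and LAMA5 was higher by 0.73 in Caco-2 (SE 0.07, adjusted p = 0.000553) and by 0.88 in HUG1N (SE 0.07, adjusted p = 0.000266). The 2 effects differed by 0.15 (SE 0.10, adjusted p = 0.242). LAMB3, the beta3 chain of laminin-332, which binds the alpha6-beta4 integrin, was at 11.10 and 11.14 in Caco-2 with shRNA against 10.22 and 10.24 in controls. In HUG1N it was at 11.86 and 11.84 with shRNA against 11.30 and 11.21 in controls. LAMB3 therefore rose by 0.88 in Caco-2 (SE 0.06, adjusted p = 0.000222) and by 0.59 in HUG1N (SE 0.06, adjusted p = 0.000795). The smaller rise in HUG1N was itself called, with a difference of effects of -0.29 (SE 0.09, adjusted p = 0.0437), but that call was lost in all 8 fits that left out 1 array, with differences from -0.33 to -0.25 and adjusted p from 0.0509 to 0.114.

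The promoter windows shown are examples, picked after the values were seen: P3H2, LAMA5, LAMB3 and COL4A2 from the 7 that the shRNA moved in 1 direction in Caco-2 and HUG1N alike, and ACTA2, with the largest fitted fall in HUG1N. TPM1, ITGB1 and LAMB1 are not shown, and of the 3 LAMB3 windows only the one with an AP-1 match is shown; one of the others holds an E-box and one none of the motifs. They come from RefSeq (GRCh38.p14), run from 250 bases before to 50 bases after an annotated transcript start, and read 5′ to 3′ along the gene. Of the 28 genes tested, 21 had such windows, 33 in all; none was used for COL1A1, COL5A2, ITGA3, ITGB4, LUM, TAGLN or TGM2. Capitals mark matches on either strand to 3 motifs: AGATAA, the letters bound by GATA factors, CACCTG, the E-box bound by ZEB and SNAI factors, and TGANTCA, the AP-1 site. In the windows shown, CAGGTG and TTATCT are E-box and GATA matches on the opposite strand.
P3H2 upstream start, chr3:190122229-190122528, minus strand: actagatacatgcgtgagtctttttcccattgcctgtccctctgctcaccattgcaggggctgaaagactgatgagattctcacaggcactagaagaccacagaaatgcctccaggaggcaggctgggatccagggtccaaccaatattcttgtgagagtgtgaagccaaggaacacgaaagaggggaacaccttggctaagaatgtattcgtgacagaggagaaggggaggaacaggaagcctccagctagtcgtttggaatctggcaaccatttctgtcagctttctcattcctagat
P3H2 downstream start, chr3:190120848-190121147, minus strand: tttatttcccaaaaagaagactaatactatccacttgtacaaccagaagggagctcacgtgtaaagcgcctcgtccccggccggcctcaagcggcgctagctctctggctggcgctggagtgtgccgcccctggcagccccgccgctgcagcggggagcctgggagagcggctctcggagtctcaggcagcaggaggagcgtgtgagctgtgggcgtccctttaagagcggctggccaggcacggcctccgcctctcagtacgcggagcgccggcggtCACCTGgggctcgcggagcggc
LAMA5, chr20:62367263-62367562, minus strand: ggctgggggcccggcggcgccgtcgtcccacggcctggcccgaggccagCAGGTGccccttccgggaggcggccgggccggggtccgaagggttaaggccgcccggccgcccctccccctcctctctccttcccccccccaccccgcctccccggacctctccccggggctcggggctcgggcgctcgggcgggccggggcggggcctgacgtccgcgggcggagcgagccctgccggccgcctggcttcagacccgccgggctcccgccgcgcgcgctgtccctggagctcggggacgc
LAMB3, chr1:209651325-209651624, minus strand: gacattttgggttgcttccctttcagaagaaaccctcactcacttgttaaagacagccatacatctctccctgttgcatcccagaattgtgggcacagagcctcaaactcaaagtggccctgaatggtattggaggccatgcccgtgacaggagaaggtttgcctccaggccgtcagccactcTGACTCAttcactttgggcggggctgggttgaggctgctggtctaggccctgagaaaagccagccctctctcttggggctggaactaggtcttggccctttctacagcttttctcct
COL4A2, chr13:110307034-110307333, plus strand: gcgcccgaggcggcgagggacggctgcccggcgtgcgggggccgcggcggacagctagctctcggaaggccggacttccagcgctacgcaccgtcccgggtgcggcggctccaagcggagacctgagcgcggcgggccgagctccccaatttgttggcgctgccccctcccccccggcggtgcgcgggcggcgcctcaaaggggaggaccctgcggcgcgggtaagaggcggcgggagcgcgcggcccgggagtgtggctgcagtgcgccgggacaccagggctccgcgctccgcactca
ACTA2, chr10:88952724-88953023, minus strand: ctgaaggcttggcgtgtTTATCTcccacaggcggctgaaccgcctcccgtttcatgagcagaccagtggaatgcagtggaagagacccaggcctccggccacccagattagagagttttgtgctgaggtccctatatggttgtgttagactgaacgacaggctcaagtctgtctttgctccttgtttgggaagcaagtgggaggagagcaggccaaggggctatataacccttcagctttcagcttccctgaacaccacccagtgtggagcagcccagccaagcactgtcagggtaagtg

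The letters AGATAA were found in 2 of the 33 windows, 1 of ACTA2 and 1 of ITGAV, and in 10.3% of all 35116 windows of the RefSeq table. The shorter core letters GATA were not counted, and they occur in other windows, such as the P3H2 upstream window shown. The ACTA2 match begins at position -233 relative to the start, and the other ACTA2 window, at a start farther upstream, holds none of the 3 motifs. E-boxes were found in 7 of 33 windows, of ITGA6, ITGB5, LAMA5, LAMB3, LOX and P3H2, and in 20.6% of all windows. The AP-1 letters were found in 1 window, the LAMB3 window shown, and in 7.71% of all windows. The median GC content of the 33 windows was 70.0%, against 58.7% over all windows. A match is a description of these letters, and a window without one says only that the letters are not in it. The COL4A2 window overlaps that of COL4A1, which reads from the other strand at chr13:110307108-110307407, by 226 bases: the 2 genes start head to head.

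Of the 7 collagen genes, 4 were tested, and 1 rose and 1 fell in each line, where 38.7% (Caco-2) and 48.7% (HUG1N) of all genes tested were called. COL4A2, the alpha2 chain of basement membrane collagen, was at 5.27 and 5.51 in Caco-2 with shRNA against 5.89 and 5.90 in controls, and at 3.60 and 3.68 in HUG1N with shRNA against 4.42 and 4.58 in controls. COL4A2 fell by 0.51 in Caco-2 (SE 0.10, adjusted p = 0.0114). In HUG1N it fell by 0.86 (SE 0.10, adjusted p = 0.00119), which is a fall of at least 1.41-fold because both shRNA arrays were under log2 4. The Caco-2 call of COL4A2 was lost without either Caco-2 control array, at -0.51 and adjusted p = 0.0559 without replicate 1 and adjusted p = 0.0583 without replicate 2.

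COL5A2, a chain of the type V collagen that nucleates fibrils, was at 12.90 and 12.52 in Caco-2 with shRNA against 11.81 and 12.12 in controls. All 4 HUG1N arrays lay between 2.18 and 2.71. The Caco-2 rise of 0.75 (SE 0.21, adjusted p = 0.0362) was lost without either Caco-2 control array (0.59 and 0.90). It was also lost without Caco-2 shRNA replicate 1 (0.56) and without either HUG1N shRNA array. Another COL5A2 probe set, also bright in Caco-2, differed by 0.66 there (SE 0.23) and was not called (adjusted p = 0.0674). The difference of effects was -0.14 in that set (SE 0.32) and not called (adjusted p = 0.7425), against -0.93 in the set used. COL18A1, whose C-terminal fragment is endostatin, was at 4.85 and 5.44 in HUG1N with shRNA against 4.48 and 4.65 in controls, a rise of 0.59 (SE 0.19, adjusted p = 0.0449) that came down to 0.29 (adjusted p = 0.112) without shRNA replicate 2. That call held without HUG1N shRNA replicate 1 and was lost without any other single array, with adjusted p up to 0.173. In Caco-2 the same gene was at 7.10 and 7.19 with shRNA against 7.61 and 7.77 in controls, a difference of -0.54 (SE 0.19) that was not called (adjusted p = 0.0671) but was called without either HUG1N shRNA array (adjusted p = 0.0120 in both fits). The 2 effects on COL18A1 differed by 1.13 (SE 0.27, adjusted p = 0.0170), with adjusted p up to 0.0583 when 1 array was left out. Another COL18A1 probe set was called in neither line, at 0.48 in HUG1N (SE 0.22, adjusted p = 0.119) and -0.41 in Caco-2 (SE 0.22, adjusted p = 0.195). Nor was its difference of effects called, at 0.89 (SE 0.31, adjusted p = 0.0593). COL1A1, a chain of the main fibrillar collagen of connective tissue, lay between 3.96 and 4.85 in all 8 arrays. Its groups overlapped in both lines, and its 3 other probe sets were near the lowest value.

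Among the matrix-modifying enzymes, P3H2 is described above. PLOD1 and PLOD2 are lysyl hydroxylases, which prepare collagen for cross-linking, and both fell in HUG1N. PLOD1 was at 8.18 and 8.28 in HUG1N with shRNA against 8.89 and 9.07 in controls, a difference of -0.75 (SE 0.09, adjusted p = 0.00139). PLOD2 was at 11.94 and 12.53 in HUG1N with shRNA against 12.92 and 12.97 in controls, a difference of -0.71 (SE 0.21, adjusted p = 0.0312). The PLOD2 call was lost without either control array of either line (adjusted p up to 0.113) and without HUG1N shRNA replicate 1, where the difference was -0.42 (adjusted p = 0.103), while its other probe set was called at -0.85 (SE 0.13, adjusted p = 0.00283). In Caco-2 the 2 genes differed by -0.29 (PLOD1, adjusted p = 0.0529) and 0.27 (PLOD2, adjusted p = 0.356), and neither was called. The difference between the lines was called for PLOD1 at -0.46 (SE 0.13, adjusted p = 0.0340) and for PLOD2 at -0.98 (SE 0.30, adjusted p = 0.0368). With 1 array left out, these adjusted p-values reached 0.0916 for PLOD1 and 0.105 for PLOD2.

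TGM2, transglutaminase 2, cross-links matrix proteins and also acts inside the cell, and it moved in opposite directions in the 2 lines. It was at 8.85 and 8.70 in Caco-2 with shRNA against 7.12 and 7.27 in controls, and at 4.34 and 4.33 in HUG1N with shRNA against 5.40 and 5.42 in controls. The Caco-2 rise was 1.58 (SE 0.08, adjusted p = 6.38e-05) and the HUG1N difference was -1.07 (SE 0.08, adjusted p = 0.000277), and the difference of effects was -2.65 (SE 0.12, adjusted p = 4.87e-05). Its 2 other tested probe sets did not show the fall in HUG1N, at 0.41 (SE 0.53, adjusted p = 0.565) and 0.09 (SE 0.10, adjusted p = 0.505). Both were already under log2 4 in the HUG1N controls (3.40 and 3.42, and 2.19 in both), so they could show little of a fall. With the mean of all probe sets, which takes in these dim sets, the HUG1N difference was -0.14 (adjusted p = 0.407). One of the 2 other tested sets showed the Caco-2 rise, at 2.34 (SE 0.10, adjusted p = 3.66e-05). LOX, the main lysyl oxidase, was at 7.04 and 6.03 in Caco-2 with shRNA against 6.96 and 6.91 in controls and near the lowest value in HUG1N. The LOX groups overlapped, and it was not called in either line, but without Caco-2 shRNA replicate 1 it was called lower in Caco-2 (-0.90, adjusted p = 0.00502).

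All 6 laminin and basement membrane genes tested were called in Caco-2, 4 higher and 2 lower, against 38.7% of all genes tested. In HUG1N 2 rose, LAMA5 and LAMB3, and 1 fell, a share near the 48.7% of all genes called there. LAMB1, the beta1 chain of the classical basement membrane laminins, was the one that fell in both. It was at 12.28 and 12.21 in Caco-2 with shRNA against 12.55 and 12.58 in controls, and at 9.82 and 9.81 in HUG1N with shRNA against 11.22 and 11.00 in controls. The HUG1N difference was -1.29 (SE 0.09, adjusted p = 0.000181) and the Caco-2 difference -0.32 (SE 0.09, adjusted p = 0.0306), with a difference of effects of -0.97 (SE 0.12, adjusted p = 0.00190). The Caco-2 call of LAMB1 was lost without any 1 of the 4 Caco-2 arrays, with differences from -0.36 to -0.28, and its other probe set there differed by -0.20 (adjusted p = 0.197). LAMA5 and LAMB3 therefore rose in HUG1N while LAMB1 fell.

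LAMC1, the gamma1 chain that joins LAMA5 and LAMB1 in one laminin, was at 12.26 and 12.32 in Caco-2 with shRNA against 11.97 and 12.06 in controls. Its rise of 0.28 (SE 0.07, adjusted p = 0.0237) was lost without any 1 of the 4 Caco-2 arrays, with differences from 0.23 to 0.32. In HUG1N LAMC1 differed by 0.16 (SE 0.07, adjusted p = 0.0991), and its other probe set was called lower there, at -0.49 (SE 0.11, adjusted p = 0.0114), so its probe sets disagree. HSPG2, the proteoglycan perlecan, was at 9.23 and 9.59 in Caco-2 with shRNA against 8.75 and 8.96 in controls, a rise of 0.55 (SE 0.13, adjusted p = 0.0210). That rise was 0.45 (adjusted p = 0.109) without Caco-2 control replicate 1 and 0.37 (adjusted p = 0.0715) without shRNA replicate 2. In HUG1N perlecan lay between 9.13 and 9.24 in all 4 arrays. NID1, nidogen 1, which links laminin to type IV collagen, was at 8.77 and 8.79 in Caco-2 with shRNA against 10.04 and 9.39 in controls, a difference of -0.93 (SE 0.19, adjusted p = 0.0118) that was lost without either Caco-2 shRNA array (adjusted p = 0.0580 and 0.0532). All HUG1N arrays had NID1 at 2.08 to 2.11. Another NID1 probe set was not called in Caco-2, at -0.31 (SE 0.54, adjusted p = 0.702), nor was its difference of effects (adjusted p = 0.451). With the mean of all probe sets the Caco-2 difference of NID1 was -0.62 and not called (adjusted p = 0.1655).

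Of the 5 matricellular and small proteoglycan genes, 3 were tested, and 1 rose in each line, where 19.5% (Caco-2) and 24.7% (HUG1N) of all genes tested rose. LUM encodes lumican, a proteoglycan that binds collagen fibrils and is mostly known from connective tissue. It was at 7.45 and 7.62 in Caco-2 with shRNA against 3.52 and 3.33 in controls, and at 2.08 to 2.63 in all HUG1N arrays. No Caco-2 control array and no HUG1N array was over log2 4, so its rise in Caco-2 was at least 11.6-fold; since only the 2 shRNA arrays brought the gene past the filter, no p-value is given. The fibroblast markers PDGFRA, DCN and COL1A2 were at or near the lowest value in those same arrays. THBS1, the adhesive glycoprotein thrombospondin 1, was at 8.27 and 8.07 in HUG1N with shRNA against 7.28 and 7.65 in controls, a rise of 0.71 (SE 0.15, adjusted p = 0.00953). In Caco-2 it was at 7.70 and 7.56 with shRNA against 8.10 and 7.93 in controls, a difference of -0.38 (SE 0.15, adjusted p = 0.0905) that was not called. The effects on THBS1 differed by 1.09 (SE 0.21, adjusted p = 0.00800). Its HUG1N call was lost without shRNA replicate 1 (difference 0.61, adjusted p = 0.0518). Another THBS1 probe set was at 6.08 and 4.36 in HUG1N with shRNA against 4.13 and 4.18 in controls. Its difference of 1.06 (SE 0.51) was not called (adjusted p = 0.1355), nor was its difference of effects (adjusted p = 0.171). TGFBI, a secreted matrix protein that binds integrins, lay between 12.30 and 12.43 in the 4 Caco-2 arrays and was called in neither line.

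**Figure D2:**
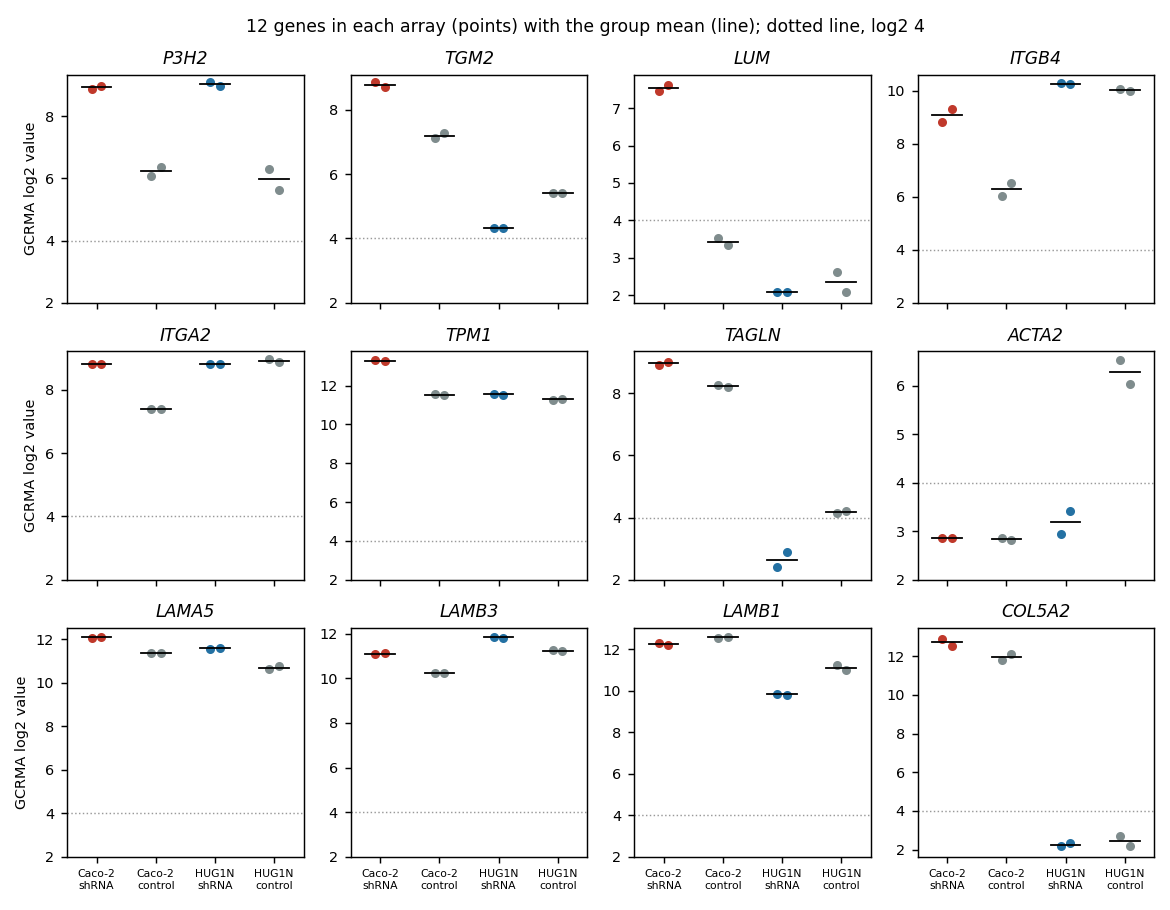
GCRMA log2 value in each array (points; 2 per group) for 12 genes described in the text, with a line at the group mean, a dotted line at log2 4 and the shRNA group left of the control group of each line. P3H2 is higher with shRNA in both lines, LUM, ITGB4 and ITGA2 in Caco-2, and ACTA2 is lower with shRNA in HUG1N, where the control arrays stand at 6.52 and 6.04.

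Of 7 integrin subunits tested, 4 rose in Caco-2 (ITGB4, ITGA2, ITGB1 and ITGB5) and 3 did not pass the test (ITGA3, ITGA6 and ITGAV). In HUG1N 1 was called higher and 1 lower. Over all genes tested, 38.7% were called in Caco-2 (19.5% higher) and 48.7% in HUG1N. ITGB4, the beta subunit of the hemidesmosomal laminin receptor, was at 8.83 and 9.29 in Caco-2 with shRNA against 6.03 and 6.53 in controls, and at 10.29 and 10.23 in HUG1N with shRNA against 10.06 and 9.98 in controls. The Caco-2 rise of 2.78 (SE 0.20, adjusted p = 0.000224), or 6.89-fold, compares with 0.24 in HUG1N (SE 0.20, adjusted p = 0.380), and the effects differed by -2.55 (SE 0.29, adjusted p = 0.00127). Another ITGB4 probe set differed by 0.79 in Caco-2 (SE 0.34) and was not called (adjusted p = 0.120). Its partner ITGA6 lay between 9.81 and 9.86 in all 4 Caco-2 arrays and was not called in either line. Another ITGA6 probe set differed by -0.45 in Caco-2 (adjusted p = 0.0509) and 0.39 in HUG1N (adjusted p = 0.0622), with the difference of effects called at 0.84 (SE 0.20, adjusted p = 0.0175). With the mean of all probe sets, ITGA6 was called lower in Caco-2 (-0.24, adjusted p = 0.0428) and higher in HUG1N (0.28, adjusted p = 0.0193).

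ITGA2, the alpha subunit of a collagen and laminin receptor, was at 8.82 in both Caco-2 shRNA arrays against 7.40 in both controls. Exactly the same value, 8.8186, stood in both Caco-2 shRNA arrays and in HUG1N shRNA replicate 2, so the Caco-2 shRNA arrays show no spread. In HUG1N it was at 8.80 and 8.82 with shRNA against 8.96 and 8.88 in controls. The Caco-2 shRNA arrays thus lay within the range of the HUG1N arrays, and the Caco-2 controls below it. The rise was 1.42 (SE 0.06, adjusted p = 3.32e-05), the HUG1N difference was -0.11 (SE 0.06, adjusted p = 0.200), and the 2 effects differed by -1.53 (SE 0.09, adjusted p = 0.000135). ITGB1, the beta subunit shared by many matrix receptors, was at 14.27 and 14.23 in Caco-2 with shRNA against 13.91 and 13.87 in controls, and at 13.78 and 13.88 in HUG1N with shRNA against 13.57 in both controls. It rose by 0.36 in Caco-2 (SE 0.07, adjusted p = 0.00779) and by 0.26 in HUG1N (SE 0.07, adjusted p = 0.0196). The HUG1N call of ITGB1 was lost without either HUG1N control array (adjusted p = 0.0664 and 0.0651) and without shRNA replicate 2 (difference 0.21, adjusted p = 0.0741). With the mean of all probe sets, most of them dim, neither ITGB1 call held, at 0.08 (adjusted p = 0.321) in Caco-2 and 0.05 (adjusted p = 0.476) in HUG1N.

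ITGB5 and ITGAV form a vitronectin receptor, and each was called in 1 line. ITGB5 was at 10.50 and 10.63 in Caco-2 with shRNA against 9.87 and 9.91 in controls, a rise of 0.68 (SE 0.07, adjusted p = 0.000828). Its HUG1N arrays lay between 11.03 and 11.11, with a difference of 0.06 (SE 0.07, adjusted p = 0.512). Another ITGB5 probe set differed by 0.46 in Caco-2 (SE 0.30, adjusted p = 0.277) and a further set by 0.16 (SE 0.12, adjusted p = 0.367). Neither was called there, and in neither was the difference of effects called (adjusted p = 0.182 and 0.6325). ITGAV was at 12.40 and 12.31 in HUG1N with shRNA against 13.02 and 12.92 in controls, a difference of -0.61 (SE 0.10, adjusted p = 0.00344). In Caco-2 it was at 11.97 and 11.74 with shRNA against 11.72 and 11.63 in controls, a difference of 0.18 (SE 0.10, adjusted p = 0.195). The difference of effects was called for both, at -0.62 for ITGB5 (SE 0.10, adjusted p = 0.00418) and -0.80 for ITGAV (SE 0.14, adjusted p = 0.00564). ITGA3, a laminin receptor subunit, was dim in Caco-2 (3.18 to 3.59). In HUG1N it was at 5.58 and 4.74 with shRNA against 4.71 and 3.70 in controls, a difference of 0.96 with a wide error (SE 0.39, adjusted p = 0.0860). It was called without HUG1N control replicate 1 (1.46, adjusted p = 0.0287) and without HUG1N shRNA replicate 2 (1.38, adjusted p = 0.04996).

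Of the 7 mesenchymal and contractile genes, the 3 that could be tested encode actin or proteins that bind actin filaments. TPM1, a tropomyosin that stabilises actin filaments, was at 13.30 and 13.26 in Caco-2 with shRNA against 11.57 and 11.50 in controls, and at 11.58 and 11.53 in HUG1N with shRNA against 11.26 and 11.32 in controls. TPM1 rose by 1.75 in Caco-2 (SE 0.07, adjusted p = 1.84e-05), or 3.35-fold, and 2 other probe sets gave 1.83 and 1.86. The HUG1N rise was 0.26 (SE 0.07, adjusted p = 0.0205), and the effects differed by -1.49 (SE 0.10, adjusted p = 0.000166). That HUG1N call was lost without control replicate 1 (difference 0.23, adjusted p = 0.0851) and without shRNA replicate 1 (difference 0.23, adjusted p = 0.0750), and neither of the 2 other probe sets was called there, at 0.06 and 0.13.

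ACTA2, smooth muscle alpha-actin, was at 2.95 and 3.41 in HUG1N with shRNA against 6.52 and 6.04 in HUG1N controls. The shRNA arrays were both under log2 4 and the control arrays both over 6, a fall of at least 4.85-fold; since only the 2 HUG1N control arrays brought the gene past the filter, no p-value is given. All Caco-2 arrays lay between 2.82 and 2.87. TAGLN, the actin-binding protein transgelin, moved in opposite directions in the 2 lines. It was at 8.90 and 9.02 in Caco-2 with shRNA against 8.28 and 8.20 in controls, and at 2.41 and 2.88 in HUG1N with shRNA against 4.14 and 4.20 in controls. The Caco-2 rise of 0.72 (SE 0.15, adjusted p = 0.0130) was lost without either control array (adjusted p = 0.0525 and 0.0704) and without shRNA replicate 2 (0.66, adjusted p = 0.0680). In HUG1N the fitted difference of -1.52 (SE 0.15, adjusted p = 0.000637) is a fall of at least 1.13-fold, and with all values under log2 4 set to 4 it was -0.17 and not called (adjusted p = 0.0913). The smooth muscle markers MYH11 and CNN1 were at or near the lowest value in all 8 arrays. TGM2 and TAGLN were the 2 genes of the list called higher in Caco-2 and lower in HUG1N, against 3.86% of all genes tested, and no gene of the list was called the other way round, against 3.44%.

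**Figure D3:**
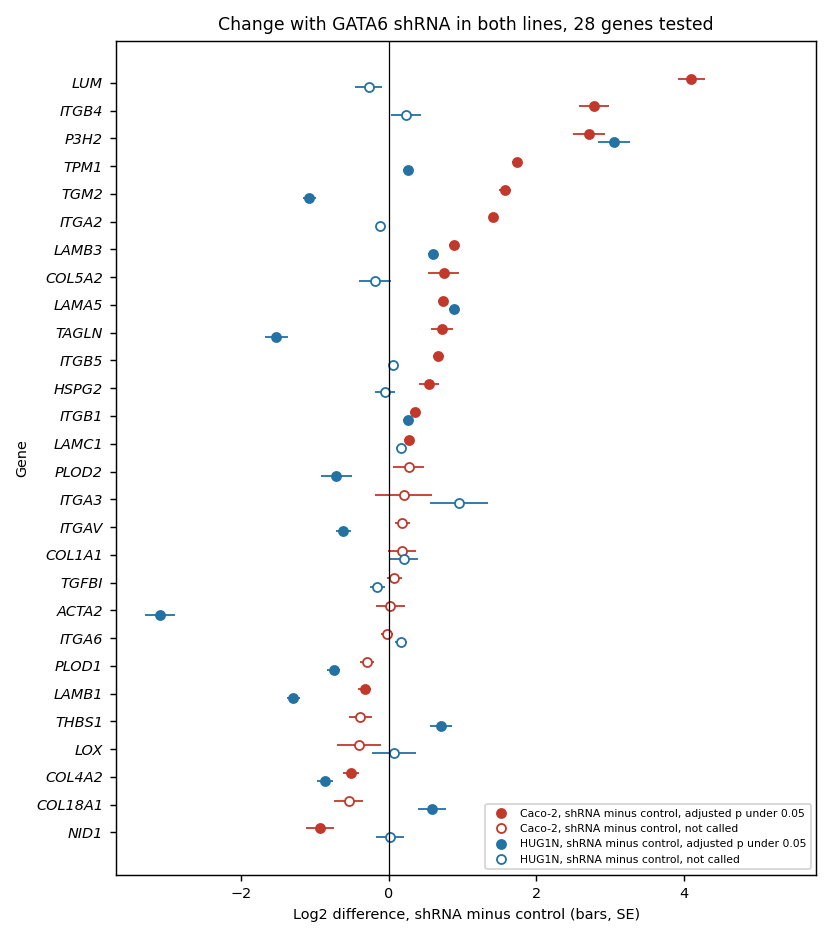
Log2 difference of shRNA minus control (points, with SE bars) for the 28 genes tested, in Caco-2 (red) and HUG1N (blue); filled points are called. Caco-2 points lie to the right of 0 for 14 called genes and to the left for 3, and P3H2 is far to the right in both lines.

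The difference between the 2 shRNA effects, HUG1N minus Caco-2, was called for 18 of the 28 genes, 3 higher and 15 lower, or 64.3% against 44.9% of all genes tested (22.2% higher and 22.7% lower). Its median over the 28 genes was -0.40, against 0.002 over all genes. The 3 with a higher effect in HUG1N were COL18A1, THBS1 and NID1, and in no other tested probe set of these genes was the difference called. The 15 with a lower effect in HUG1N included 4 of the 7 integrin genes (ITGA2, ITGAV, ITGB4 and ITGB5) and all 3 contractile genes. For LUM, COL5A2, NID1 and ACTA2 one line lay under log2 4 in all or nearly all arrays, so the size of the difference depends on the lowest value. Without LUM and ACTA2, 16 of 26 differences were called.

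The control cells of the 2 lines differed in most of these genes. Of the 28, 25 were called, 10 higher and 15 lower in HUG1N, or 89.3% against 78.4% of all genes tested (37.1% higher and 41.3% lower). Without LUM and ACTA2, 23 of 26 were called. Several matrix genes bright in Caco-2 controls were under log2 4 in HUG1N controls. TGFBI was at 2.69 and 2.42 in HUG1N control arrays against 12.30 and 12.34 in Caco-2 control arrays, at least 319-fold lower in HUG1N. COL5A2 was at 2.71 and 2.18 in HUG1N controls against 11.81 and 12.12 in Caco-2 controls, at least 250.1-fold lower in HUG1N. NID1 was at least 52.4-fold lower and LOX at least 7.66-fold lower in HUG1N. TGFBI, COL5A2, NID1 and LOX passed the filter only through Caco-2 arrays. They therefore had to differ between the lines, and no p-value is given, though the 25 include them. TAGLN differed by -4.07 (SE 0.15) and COL18A1 by -3.13 (SE 0.19), and LAMB1 and LAMC1 by -1.46 (SE 0.09) and -1.63 (SE 0.07).

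Integrin genes went the other way: 5 of 7 were called higher in HUG1N controls and 1, ITGB1, lower (-0.32, SE 0.07). ITGB4 was at 10.06 and 9.98 in HUG1N controls against 6.03 and 6.53 in Caco-2 controls, a difference of 3.75 (SE 0.20, adjusted p = 7.11e-06). ITGA6, its partner, was at 11.85 and 11.70 in HUG1N controls against 9.86 and 9.83 in Caco-2 controls, a difference of 1.93 (SE 0.08, adjusted p = 2.31e-06). ITGA2 differed by 1.52 (SE 0.06), ITGAV by 1.30 (SE 0.10) and ITGB5 by 1.14 (SE 0.07), and the laminin chain LAMB3 by 1.02 (SE 0.06). PLOD2 was higher in HUG1N controls by 2.17 (SE 0.21), and ACTA2 by at least 4.85-fold.

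**Figure D4:**
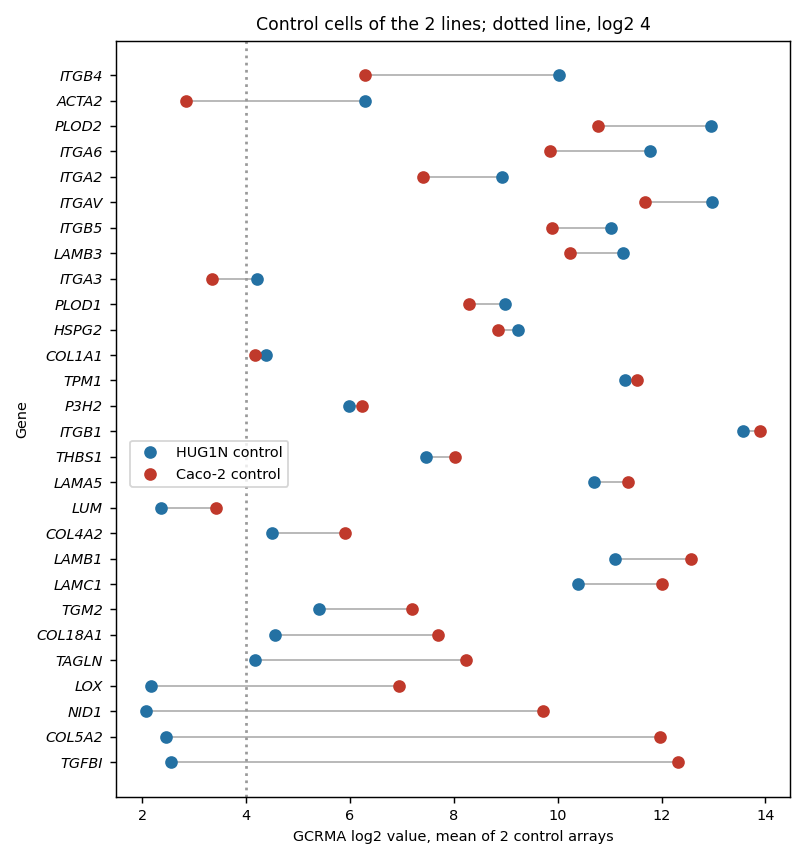
Mean GCRMA log2 value of 2 control arrays in HUG1N (blue) and Caco-2 (red) for the 28 genes tested, ordered by the difference; the dotted line marks log2 4. ITGB4, PLOD2, ITGA6, ITGA2 and ITGAV lie to the right in HUG1N, and TGFBI, COL5A2, NID1 and LOX are under log2 4 in HUG1N.

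Other genes of the same pathways were counted in 9 lists, to be read against the 38.7% of all genes called in Caco-2 and the 48.7% called in HUG1N. Integrin adaptors and hemidesmosome partners had 15 of 22 listed genes tested; 9 rose and 0 fell in Caco-2 (median 0.50), and in HUG1N 2 rose and 4 fell (median -0.06). TNS1, tensin 1, which ties integrins to actin, was at 8.66 and 8.72 in Caco-2 with shRNA against 6.42 and 6.36 in controls, a rise of 2.30 (SE 0.06, adjusted p = 4.78e-06). FERMT2, the integrin activator kindlin-2, was at 11.04 and 10.86 in Caco-2 with shRNA against 9.26 and 9.30 in controls, a rise of 1.67 (SE 0.09, adjusted p = 7.49e-05). Both genes were near the lowest value in HUG1N. PARVA, the actin-binding partner of ILK, rose in both lines, by 1.56 in Caco-2 (SE 0.20, adjusted p = 0.00194) and by 1.34 in HUG1N (SE 0.20, adjusted p = 0.00256). ILK, integrin-linked kinase, fell by 0.68 in HUG1N (SE 0.10, adjusted p = 0.00276) and differed by 0.23 in Caco-2 (adjusted p = 0.129). Of the other integrins, 3 of 15 were tested and 2 fell in Caco-2, ITGA7 by at least 2.66-fold and ITGAE by 0.40 (SE 0.10), with 0 called in HUG1N. Only the 2 Caco-2 control arrays brought ITGA7 past the filter, so it had to differ.

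Of 28 other matrix glycoproteins and proteoglycans, 10 were tested, and 5 rose and 4 fell in Caco-2 and 2 rose and 2 fell in HUG1N. FMOD, the proteoglycan fibromodulin, a relative of lumican, fell in both lines. It was at 5.66 and 5.68 in Caco-2 with shRNA against 8.60 and 8.93 in controls, a difference of -3.09 (SE 0.13, adjusted p = 2.31e-05), and at 4.32 and 4.31 in HUG1N with shRNA against 6.58 and 6.79 in controls, a difference of -2.37 (SE 0.13, adjusted p = 8.13e-05). BGN, biglycan, of the same family, rose in Caco-2 by at least 3.91-fold. Only the 2 Caco-2 shRNA arrays brought BGN past the filter, so BGN, counted among the 5 that rose, had to differ. CCN2, connective tissue growth factor, was at 6.03 and 5.31 in HUG1N with shRNA against 2.08 and 2.52 in controls, at least 3.18-fold higher, and it also rose in Caco-2, by 1.04 (SE 0.25, adjusted p = 0.0205). The 3 small leucine-rich proteoglycans LUM, FMOD and BGN thus changed in Caco-2 in different directions: LUM and BGN were higher and FMOD lower.

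Of 23 other collagens, 4 were tested; 1 rose in Caco-2, COL7A1, the anchoring fibril collagen (0.67, SE 0.12, adjusted p = 0.00669), and 2 fell in HUG1N. COL16A1 fell by 0.84 there (SE 0.18, adjusted p = 0.0105), and the other, COL6A1, was under log2 4 in all 4 HUG1N arrays. Of 20 genes of collagen folding and processing, 16 were tested, and 3 rose and 1 fell in Caco-2 and 4 rose and 2 fell in HUG1N. BMP1, which cleaves procollagen, rose in both lines, by at least 1.08-fold in Caco-2 and by 0.56 in HUG1N (SE 0.08, adjusted p = 0.00173). PLOD3, the lysyl hydroxylase related to PLOD1 and PLOD2, fell by 0.85 in HUG1N (SE 0.09, adjusted p = 0.000670), and PPIB, a prolyl isomerase of collagen folding, fell by 0.47 in Caco-2 (SE 0.09, adjusted p = 0.00918) and rose by 0.45 in HUG1N (SE 0.09, adjusted p = 0.00821). Both basement membrane genes tested of 14 rose in Caco-2 and neither was called in HUG1N. They were LAMB2, at 6.25 and 5.50 with shRNA against 4.285 in both controls, and AGRN, agrin (0.54, SE 0.13, adjusted p = 0.0181). LAMB2 had exactly 4.285 in 5 of the 8 arrays, so no size of change is stated.

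Among the other genes of epithelial-mesenchymal transition and its inhibitors, 8 of 16 were tested; 4 rose and 1 fell in Caco-2 and 2 rose and 1 fell in HUG1N. TCF4, a basic helix-loop-helix factor, was at 7.58 and 7.07 in Caco-2 with shRNA against 9.55 and 9.34 in controls, a difference of -2.12 (SE 0.18, adjusted p = 0.000413), but rose by 1.28 in HUG1N (SE 0.18, adjusted p = 0.00214). GRHL2, which maintains epithelial genes, rose by 0.74 in Caco-2 (SE 0.08, adjusted p = 0.000847), and the epithelial adhesion protein EPCAM rose by 0.40 in HUG1N (SE 0.10, adjusted p = 0.0169). Of 15 other contractile genes, 11 were tested; 2 rose and 1 fell in Caco-2 and 1 rose and 5 fell in HUG1N, with MYL9 and MYH10 of the 5 under log2 4 in all 4 HUG1N arrays. MYH9, non-muscle myosin heavy chain, fell in both lines, by 0.73 in Caco-2 (SE 0.10, adjusted p = 0.00243) and by 1.27 in HUG1N (SE 0.10, adjusted p = 0.000267). Of 20 genes of TGF-beta signalling, 12 were tested; 5 rose and 1 fell in Caco-2 and 3 rose and 4 fell in HUG1N. The receptor TGFBR2 rose by 0.93 in Caco-2 (SE 0.10) and by 0.99 in HUG1N (SE 0.10), and TGFBR3 rose by 0.82 in Caco-2 (SE 0.11) and fell by 0.52 in HUG1N (SE 0.11). In HUG1N the pathway inhibitor SKI rose by 2.24 (SE 0.17) and the receptor ACVR1B fell by 1.01 (SE 0.06).

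**Figure D5:**
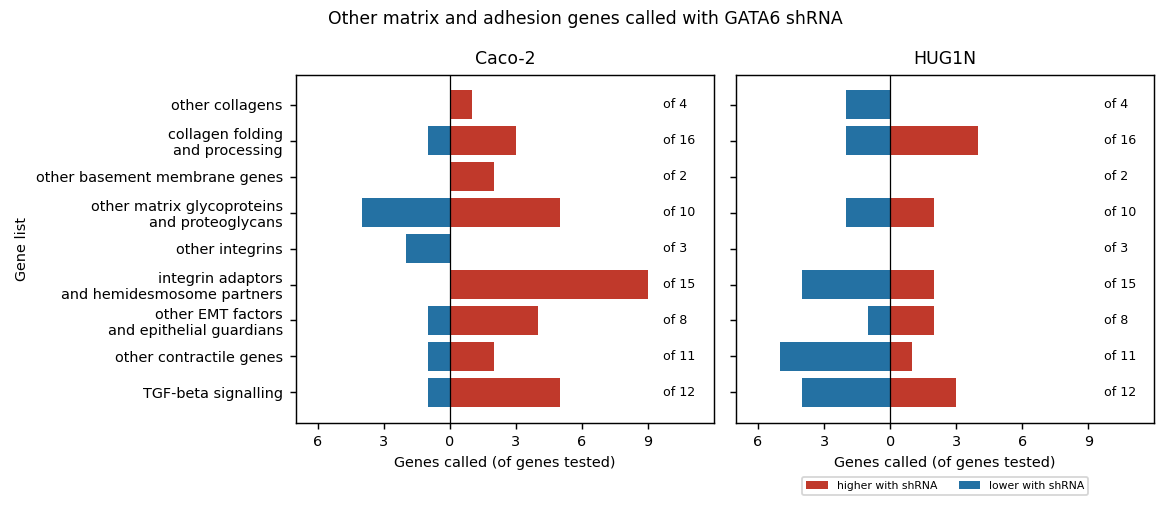
Number of genes called higher (red, to the right of 0) and lower (blue, to the left) with the shRNA in Caco-2 and HUG1N in each of 9 lists of other matrix and adhesion genes, with the number tested at the right. Integrin adaptors and hemidesmosome partners have 9 genes higher and 0 lower in Caco-2.

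Other probe sets of the same genes bear on how firmly the calls stand. Counting only the comparisons in which a gene was called (shRNA against control in either line, or the control cells of the lines), there were 73 pairs of such a comparison with another probe set of the gene. Of these, 39 were too dim to test, 17 were called the same way, 17 were not called and 0 were called the opposite way. Among the shRNA comparisons, only sets of TPM1 and TGM2 in Caco-2 and of PLOD2 and LAMB1 in HUG1N were called the same way. The rest of the same-way calls were between the control cells, and most pairs not called were of shRNA comparisons. The calls that held in every alternative setting that tested them numbered 9 of 17 in Caco-2 (LUM, ITGB4, P3H2, TPM1, TGM2, ITGA2, LAMB3, LAMA5 and ITGB5) and 8 of 15 in HUG1N (P3H2, LAMA5, LAMB3, ITGAV, PLOD1, COL4A2, LAMB1 and ACTA2), though LUM and ACTA2 passed the filter only through the group where each is high.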

How the data were processed

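The authors deposited log2 expression values for 22277 probe sets on 8 arrays, computed with GCRMA, per the submitters' processing notes; its version is not given in the sources used here. RNA was biotin-labelled with a 3′ in vitro transcription kit, per the labels' protocols. Each array had 28.7 to 29.9% of its probe sets at 2.08, the minimum of every array, and the arrays were treated as normalized together. With 2 arrays in each of 4 groups, the number of arrays limits precision.

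Names came from the platform's annotation, with 1 symbol for 19070 probe sets (19058 with a current Entrez record), several for 1043 and none here for 2164. Each of 11963 genes was represented by its probe set with the highest mean over all arrays, and the 7696 genes over log2 4 in at least 2 arrays were tested. A model of the 4 group means was fitted in limma 3.58.1 under R 4.3.3 and moderated with eBayes, and p-values of the 4 comparisons were adjusted by the Benjamini-Hochberg method over all tested genes, with calls at 0.05; the spread of a gene is shared over the groups, with 4 residual and 2.17 prior degrees of freedom. The scripts were tested on simulated data.

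The genes and lists were chosen with earlier results of these data known. Named were all genes of the list and, from each pathway list, up to 2 called genes with the smallest p in each line. Promoter windows are from RefSeq (GRCh38.p14). Alternatives were the filter, quantile normalization, median centring, an intensity trend with a robust prior, values under log2 4 set to 4, the mean of all probe sets, a fit of the compared groups only, a replicate block and leaving out each array. Scanner files were not used here, so background correction was not varied, and no slide or scan date was given. Same-numbered arrays did not deviate together (correlation of deviations 0.066 in Caco-2 and -0.016 in HUG1N), so the numbers were not taken to pair arrays.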

Additional observations from a re-analysis of the deposited data

Results flagged for a closer look

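The shRNA effect differed between the lines, by limma's test of the difference itself, for 18 of the 28 genes. As HUG1N minus Caco-2 on the log2 scale, it was higher in HUG1N for COL18A1 (1.13, adjusted p = 0.0170), THBS1 (1.09, adjusted p = 0.00800) and NID1 (0.95, adjusted p = 0.0324). It was lower in HUG1N for the actin-related genes TAGLN (-2.25) and TPM1 (-1.49), and for the integrins ITGB4 (-2.55), ITGA2 (-1.53), ITGAV (-0.80) and ITGB5 (-0.615), with adjusted p from 0.000135 to 0.00564. It was also lower in HUG1N for ACTA2 (-3.12), for which no p-value is given. Among matrix and matrix-modifying genes it was lower for LUM (-4.38), TGM2 (-2.65), LAMB1 (-0.97), PLOD2 (-0.98), COL5A2 (-0.93), HSPG2 (-0.60), PLOD1 (-0.46) and LAMB3 (-0.29). For LUM, COL5A2 and NID1 all HUG1N arrays, and for ACTA2 all Caco-2 arrays, lay under log2 4, so these differences rest on the change in the other line. LUM and ACTA2 passed the filter only through the group where each is high. In the other tested probe sets of COL5A2, COL18A1, THBS1, NID1, ITGB4 and ITGB5 the difference of effects was not called. It was called the same way in those of PLOD2, TPM1 and LAMB1 and in 1 of TGM2. With 1 array left out, 7 of the 18 calls were lost in at least 1 fit, with adjusted p up to 0.137 for COL5A2, 0.0583 for COL18A1, 0.0916 for PLOD1, 0.105 for PLOD2, 0.114 for LAMB3, 0.128 for HSPG2 and 0.0850 for NID1.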

How the results depend on the processing

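The number of genes called in Caco-2 was 17 and came to 11 without Caco-2 control replicate 1 and 11 without Caco-2 shRNA replicate 2, with a range of 11 to 19 over the 8 fits that left out an array. The same range was 11 to 14 in HUG1N (15 with all arrays), 12 to 14 for the difference of effects (18) and 22 to 25 for the control cells (25). Over all genes, the share called in Caco-2 was 38.7% with all arrays and 24.1 to 28.1% without 1 of the 4 Caco-2 arrays. Without the filter on dim genes, 12, 13, 12 and 24 of the genes were called in the 4 comparisons, and 20.2, 27.1, 24.0 and 49.6% of all genes. With a replicate block, 15, 14, 17 and 26 genes of the list were called; the array numbers are not known to pair samples, and ITGA3 in HUG1N was called there (0.96, adjusted p = 0.00545). The calls of COL5A2, LAMB1, LAMC1, HSPG2, NID1, TAGLN, COL4A2 and ITGB1 in Caco-2, and of COL18A1, PLOD2, ITGB1, TPM1, THBS1, TGM2 and TAGLN in HUG1N, were each lost in at least 1 setting. Of the differences of effects, 11 of 18 calls, and of the control comparison, 20 of 25 calls, held in every setting that tested them; between the controls those lost were of THBS1, TPM1, HSPG2, ITGB1 and LUM. Results not called with all arrays gained a call in at least 1 setting for 5 genes in Caco-2, 4 in HUG1N, 7 in the difference of effects and 2 between the controls. No call changed direction. Signs that turned belonged to differences that were not called: ACTA2 in Caco-2 after quantile normalization (-0.0027); COL5A2 (0.16), LAMC1 (-0.16), ITGB4 (-0.14) and ITGB5 (-0.19) in HUG1N with the mean of all probe sets; and the difference of effects of COL4A2 with values under log2 4 set to 4 (0.009). With 1 array left out, the Caco-2 differences ran from -0.014 to 0.38 for COL1A1 and from -0.90 to 0.11 for LOX. In HUG1N they ran from -0.035 to 0.46 for COL1A1, -0.45 to 0.073 for COL5A2, -0.54 to 0.0069 for LUM, -0.023 to 0.16 for LOX and -0.11 to 0.004 for HSPG2. The difference of effects ran from -0.22 to 0.28 for COL1A1 (-0.16 without Caco-2 control replicate 1) and from -0.039 to 0.97 for LOX, and the control difference of P3H2 from -0.59 to 0.089. The cause of these shifts was not tested. A left-out array leaves its group with 1 array, whose spread is taken from the others. Genes near log2 2.08 give no measurable change.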
